A study of Trichoderma reesei with 6 samples.

Results

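A set of 281 genes of Trichoderma reesei had a higher signal on glucose than on either of 2 other carbon sources, with lactose and glycerol close to each other. They were 3.08% of the 9126 gene features on the array. Members were chosen by their measured values. The log2 signals of the 2 arrays of each carbon source were averaged, and a gene was taken when its glucose mean lay at least 1 (2-fold) above both the lactose and the glycerol mean and when these lay less than 1 apart. Every difference between glucose and the other carbon sources in these genes is therefore a description of the selected genes. Calls by a test on the same differences, given further on, were largely fixed by this choice.

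The arrays came from mycelia of strain QM9414, a mutant from the early breeding of this fungus for cellulase, grown in shake flasks on 10 g/l of glucose, lactose or glycerol. No group carried a deletion or a treatment other than its carbon source. The labels give 24 h of growth for glucose and glycerol and 28 h for lactose, whereas the methods of the study give 24 h for all cultures, so that carbon source and sampling time cannot be told apart where lactose is compared. Each carbon source had 2 single-colour NimbleGen arrays, and the labels speak both of duplicate flasks and of mixed mycelia, so that p-values below measure the spread between 2 arrays, which may be partly technical. Signals spanned 2.70 to 15.90 on the log2 scale with array medians of 10.80 to 10.85, and the 2 arrays of a carbon source correlated across genes with r = 0.998 on glucose, 0.998 on lactose and 0.996 on glycerol. Of 7 genes for conidiation proteins, which mark spores, and for hydrophobins, 1 was higher on glucose than on lactose and 5 were lower. Against glycerol 2 were higher and 4 lower on glucose, by the limma fit described further on. The 2 higher ones were the conidiation genes Trire2:5084 (conidiation-specific protein 10, by 1.51 on the log2 scale) and Trire2:4430 (wetA, by 1.0). The 4 lower ones were hydrophobin genes. Over all features the shares called higher and lower on glucose were 13.9% and 15.5% against lactose and 8.49% and 9.07% against glycerol. The mean log2 signal of the 7 genes was 6.19 and 6.37 on glucose, 9.77 and 9.69 on lactose and 9.41 and 9.19 on glycerol. Their part in the results was not tested.

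Glucose is the preferred sugar of most filamentous fungi. It enters glycolysis directly and represses many genes for the use of other carbon sources through carbon catabolite repression. Lactose is split outside or inside the cell into glucose and galactose, and galactose is used through the Leloir pathway or through a reductive route. Glycerol enters glycolysis at the triose phosphates. Genes high on glucose only are thus those whose transcripts stood out on the free sugar against both a slowly used disaccharide and a carbon source that is neither a sugar nor an inducer of cellulases. In RNA from whole mycelium, a change in each hypha and a change in the share of hyphae that express a gene cannot be told apart.

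Most of the 281 genes have no name. RefSeq gives symbols for 235 of the features and for 3 of the 281 genes, namely gal7 (Trire2:111074), gar1 (Trire2:22004) and chi18-17 (Trire2:110317). The study annotated 1540 of the features, none of them among the 281 (0), because its tables list genes that differed on lactose from both other carbon sources and the rule here takes genes in which lactose and glycerol were close. All other genes are given by their Trire2 protein number, without a role.

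The median log2 signal of the 281 genes was 10.75 on glucose, 8.40 on lactose and 8.30 on glycerol, against 10.84, 10.84 and 10.81 in the same order over all features. On glucose they thus lay near the median of the array, and on lactose and glycerol below it. The median difference was 1.90 for glucose minus lactose and 1.83 for glucose minus glycerol, against 0.06 and 0.03 over all features. Both differences rest on the same glucose arrays. The smaller of both differences, which decided on membership, had a median of 1.64 and a maximum of 8.06. It was set by lactose in 106 genes and by glycerol in 175.

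**Figure D1:**
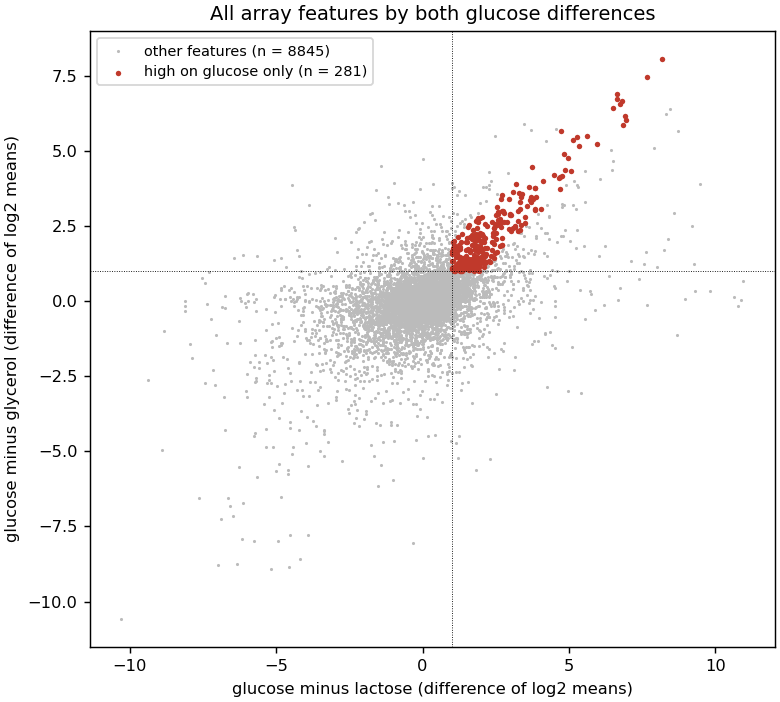
Difference of log2 means between glucose and lactose (horizontal axis) and between glucose and glycerol (vertical axis) for all 9126 features, with the 281 genes high on glucose only in red and the other 8845 in grey. Dotted lines mark a difference of 1, and the red points form a band along the diagonal because lactose and glycerol had to lie less than 1 apart.

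The glucose condition alone was met by 431 features. Of these, 116 were left out because lactose was at least 1 lower than glycerol and 34 because glycerol was at least 1 lower than lactose. In a limma fit over all features, where a gene was called when it differed over 2-fold with a Benjamini-Hochberg adjusted p under 0.05, all 281 genes were called higher on glucose in both comparisons, which the choice of the genes largely fixed in advance. Among all features 13.9% were called higher on glucose than on lactose, 8.49% higher on glucose than on glycerol, and 4.72% higher than on both. Called lower on glucose were 15.5% against lactose and 9.07% against glycerol.

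The arrays of the 281 genes did not overlap. Both glucose arrays lay above the other 4 arrays in all 281 genes, by 0.41 in the closest case, and by at least 1 in 224 of them. Over all features 23.9% had both glucose arrays above the other 4, and 3.74% by at least 1. The median SD between the 2 arrays of a carbon source was 0.103 on glucose, 0.0935 on lactose and 0.12 on glycerol in the selected genes, close to the 0.0901, 0.0836 and 0.12 of all features. A few genes varied more. Trire2:2570 had log2 signals of 5.17 and 6.29 on glucose, against 3.03 and 3.08 on lactose and 3.25 and 3.26 on glycerol, which is the widest spread of the 281 genes on glucose. Trire2:64758 had 9.92 and 9.95 on glucose, against 8.85 and 8.97 on lactose and 8.19 and 9.51 on glycerol, and its glycerol arrays had the widest spread.

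Because the selection used both arrays, the rule was also applied to 1 array of each carbon source and read in the other. The arrays numbered 1 chose 291 genes, of which 212 (72.9%) met the full rule in the arrays numbered 2. All 291 were higher on glucose than on both others there, by at least 0.27. Their median smaller difference was 1.60 in the arrays that chose them and 1.54 in the others. The arrays numbered 2 chose 282 genes, of which 212 (75.2%) met the rule in the arrays numbered 1, and the median was 1.62 in the choosing arrays and 1.60 in the others. In 281 of these 282 genes glucose was the highest in the arrays not used, and the remaining gene had a smaller difference of -0.09 there. The share of all features with glucose highest in 1 array set was not counted, so these counts have no background beside them. Whether the 2 arrays of a carbon source hold separate cultures is not settled by the labels, so this compares arrays and may not compare cultures.

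The set runs up to its limit without a gap. Just inside lay Trire2:5088 with a smaller difference of 1.0000, Trire2:102437 with 1.0005, Trire2:5612 with 1.0008, Trire2:124065 with 1.0070 and Trire2:56525 with 1.0076. Just outside lay Trire2:104318 with 0.9939, Trire2:38441 with 0.9904, Trire2:54366 and Trire2:3422 with 0.9895 each, and Trire2:120929 with 0.9860. In 36 of the 281 genes the smaller difference was under 1.1, and in 19 the lactose and glycerol means were over 0.9 apart.

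The size of the rise was uneven. The smaller difference was under 4-fold in 186 genes (66.2%), at least 4-fold in 95, at least 8-fold in 47, at least 16-fold in 25 and at least 64-fold in 9. The values of these 9 genes on each array follow.

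Trire2:112034 had the largest rise, with log2 signals of 10.98 and 11.23 on glucose, against 2.85 and 2.98 on lactose and 3.04 and 3.04 on glycerol. Trire2:60144 had 10.47 and 10.76 on glucose, against 3.04 and 2.90 on lactose and 3.08 and 3.21 on glycerol. In both genes the glucose arrays were near the array median and the other 4 arrays were at the bottom of the signal range.

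Trire2:6005 had 12.68 and 12.62 on glucose, against 5.90 and 5.80 on lactose and 5.82 and 6.12 on glycerol. Trire2:104081 had 11.40 and 11.49 on glucose, against 4.71 and 4.89 on lactose and 4.89 and 4.53 on glycerol. Trire2:112567 had 12.84 and 12.92 on glucose, against 6.31 and 6.20 on lactose and 5.82 and 6.11 on glycerol. These 3 genes had mean signals above the lowest 10% of all signals on all carbon sources, with smaller differences of 6.68, 6.65 and 6.62 on the log2 scale. Trire2:104081 was close to that range, with 1 glycerol array inside it.

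Trire2:70973 had 9.37 and 9.95 on glucose, against 2.94 and 2.87 on lactose and 3.08 and 3.08 on glycerol. Trire2:56911 had 9.37 and 9.48 on glucose, against 2.91 and 2.92 on lactose and 2.91 and 3.04 on glycerol. Like Trire2:112034, they were near the bottom of the range on every lactose and glycerol array. Trire2:73250 had 9.80 and 9.72 on glucose, against 2.89 and 2.80 on lactose and 3.57 and 3.63 on glycerol. Trire2:54461 had 9.72 and 10.41 on glucose, against 3.09 and 3.17 on lactose and 3.83 and 4.25 on glycerol. In these last 2 genes both glycerol arrays lay above both lactose arrays, although all 4 were in the lowest 10%.

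**Figure D2:**
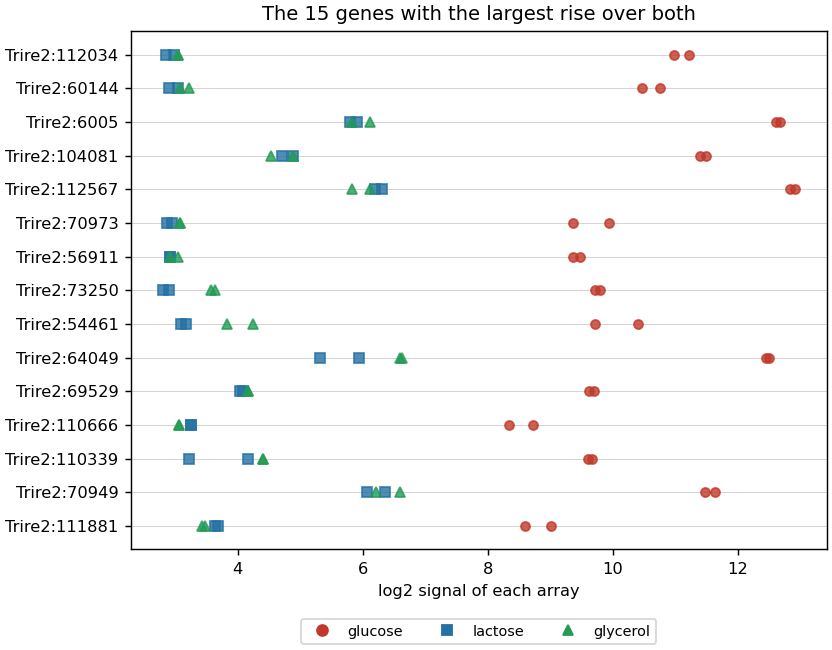
Log2 signal of each array for the 15 genes with the largest smaller-of-both glucose difference, with glucose as red circles, lactose as blue squares and glycerol as green triangles. In every row both glucose arrays lie between 8.34 and 12.92, to the right of the other 4 arrays.

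Fold values depend on how far down a signal could be read. The lowest 10% of all signals ended at a log2 value of 4.66. In 50 of the 281 genes (17.8%) the lactose and the glycerol mean both lay below it, against 8.06% of all features. Signals in this range may be at the background of the array, for which the deposited values hold no flag, so that the folds of these 50 genes are limited by the floor. Their median glucose signal was 6.71, with a range of 3.98 to 11.1, and their median smaller difference was 3.04. In the other 231 genes the median smaller difference was 1.51 and the maximum 6.68. Of the 25 genes with a smaller difference of at least 16-fold, 16 were among the 50. In 5 genes the glucose mean, too, lay in the lowest 10%.

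At the upper end, 75 of the 281 genes (26.7%) had a glucose mean of at least 12, against 29.5% of all features, and their median smaller difference was 1.40. Trire2:121820 had log2 signals of 15.16 and 15.10 on glucose, against 13.45 and 13.17 on lactose and 14.06 and 13.68 on glycerol. Trire2:66041 had 14.62 and 14.49 on glucose, against 12.07 and 12.10 on lactose and 12.77 and 13.12 on glycerol. In both genes all 6 arrays lay above the median of the array. Trire2:110853 had 13.92 and 14.18 on glucose, against 10.18 and 10.22 on lactose and 11.06 and 10.99 on glycerol, a fold of 14.4 over lactose and of 8.13 over glycerol. Trire2:121486 had 13.99 and 14.12 on glucose, against 11.56 and 11.69 on lactose and 11.39 and 11.81 on glycerol, a fold of 5.38 over lactose and of 5.47 over glycerol.

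**Figure D3:**
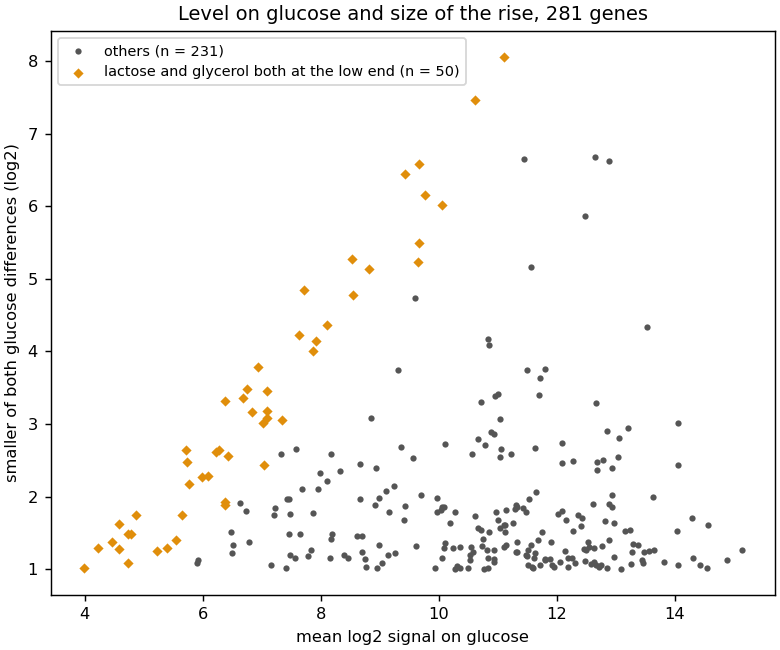
Mean log2 signal on glucose (horizontal axis) against the smaller of both glucose differences (vertical axis, log2) for the 281 genes, with the 50 genes whose lactose and glycerol means were both in the lowest 10% of signals as orange diamonds. The orange points rise along a line because their lactose and glycerol signals lay close to the floor, and the 231 grey points stay at or below 6.68.

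The rule required lactose and glycerol to be less than 1 apart, so the count of 0 genes that differed between them by over 2-fold was fixed in advance. By the adjusted p of the limma fit alone, 131 of the 281 genes (46.6%) differed between lactose and glycerol, against 59.8% of all features, and 84 of the 131 were lower and 47 higher on lactose. The median lactose minus glycerol difference was -0.12 in the 281 genes and -0.05 over all features. The rule removed genes with both means at least 1 apart, which holds the 46.6% down. The split by direction was not counted over all features. Small differences between both carbon sources were thus present in the selected genes too, in a smaller share than over all features. Trire2:64049, with 5.31 and 5.94 on lactose and 6.60 and 6.63 on glycerol, was among the genes close to this limit.

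Of the 3 genes with a symbol, gal7 encodes galactose-1-phosphate uridylyltransferase of the Leloir pathway. Its log2 signals were 12.14 and 12.36 on glucose, against 11.09 and 11.11 on lactose and 10.67 and 10.36 on glycerol, so that gal7 was 2.21-fold higher on glucose than on lactose, of which galactose is a part, and 3.33-fold higher than on glycerol. The arrays of glucose, lactose and glycerol formed separate levels in this order. The list of Leloir genes and that of galactose and pentose reduction were formed after it was known that gal7 was selected.

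The other Leloir genes were not selected. The galactokinase gene gal1 had 11.62 and 11.36 on glucose, against 8.39 and 8.62 on lactose and 10.42 and 10.84 on glycerol. It was higher on glucose than on lactose by 2.98 on the log2 scale (SE 0.173, limma adjusted p = 1.37e-06), but higher than on glycerol by 0.86 (SE 0.173, limma adjusted p = 0.00408), short of 2-fold. The epimerase gene gal10 had 12.28 and 12.51 on glucose, against 12.44 and 12.16 on lactose and 12.44 and 12.44 on glycerol, with overlapping arrays. The 3 Leloir genes therefore had 3 different patterns.

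In the list of galactose and pentose reduction, which is not limited to the galactose route, 3 of 4 genes were lower on glucose than on lactose. These were xyl1, lad1 and lxr1, by the same test. Only lxr1 was also lower than on glycerol (-1.98). Over all features 15.5% were called lower on glucose than on lactose and 9.07% lower than on glycerol. The aldose reductase gene xyl1 had 9.97 and 9.68 on glucose, against 11.41 and 11.23 on lactose and 9.08 and 8.70 on glycerol. The arabinitol dehydrogenase gene lad1 had 7.51 and 7.81 on glucose, against 10.93 and 10.30 on lactose and 8.35 and 8.41 on glycerol. None of the 4 genes (0) was selected, and their lactose arrays lay above their glucose arrays, opposite to gal7 and gal1. The hexokinase gene hxk1, whose product phosphorylates glucose, had 13.73 and 13.78 on glucose, against 13.52 and 13.53 on lactose and 13.65 and 13.55 on glycerol, with differences of 0.23 (limma adjusted p = 0.109) and 0.16 (limma adjusted p = 0.309) that did not pass the test.

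**Figure D4:**
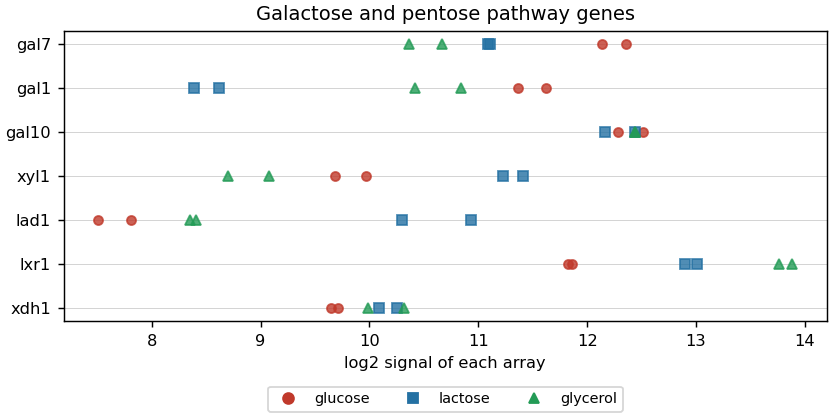
Log2 signal of each array for the Leloir genes gal7, gal1 and gal10 and the galactose and pentose reduction genes xyl1, lad1, lxr1 and xdh1. Glucose is shown as red circles, lactose as blue squares and glycerol as green triangles. Both glucose arrays of gal7 lie at 12.14 and 12.36, above its other 4 arrays. The lactose arrays lie above the glucose arrays in all 4 galactose and pentose reduction genes.

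The second named gene, gar1, had 10.84 and 11.02 on glucose, against 9.66 and 9.91 on lactose and 9.53 and 9.41 on glycerol, a fold of 2.21 over lactose and of 2.75 over glycerol. The third, chi18-17, encodes a chitinase of glycoside hydrolase family 18. Chitinases of this family degrade chitin, a polymer of the fungal cell wall. Its log2 signals were 4.57 and 4.35 on glucose, against 3.06 and 2.97 on lactose and 3.07 and 3.10 on glycerol, so that all 6 arrays lay in the lowest 10% of signals. Of the 18 family 18 chitinases, a list formed after this gene was seen, 2 were called higher and 1 lower on glucose than on lactose, and 3 higher and 3 lower than on glycerol. The higher calls, 2 and 3 of 18, stand beside the 13.9% and 8.49% of all features. The lower calls, 1 and 3 of 18, stand beside 15.5% and 9.07%. The other chitinase called higher than on both was chi18-12, with 6.52 and 6.43 on glucose, against 4.72 and 3.91 on lactose and 3.13 and 3.13 on glycerol, and it was left out because its lactose and glycerol means were too far apart.

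Lists of named housekeeping and signalling genes held none of the 281. None (0) of 42 genes for cytosolic ribosomal proteins, 5 of glycolysis and glucose 6-phosphate entry, 5 of the citrate cycle and ATP synthase, 5 histones, 6 subunits of the 20S proteasome, 4 of carbon catabolite repression, 10 of G protein and cAMP signalling or 8 of secretion and folding was selected. Since 3.08% of all features and 3 of the 235 with a symbol were selected, counts of 0 in lists of this size are near the background and set none of the lists apart. The ribosomal protein genes had a median difference of 0.38 for glucose minus lactose and 0.05 for glucose minus glycerol, and limma called none of the 42 in either comparison (0). At an unadjusted p under 0.05 without a fold limit, 25 of the 42 were higher on glucose than on lactose, against 35.9% of all features, and 1 was lower than on glycerol, against 23.3% of all features. The glycolysis genes had medians of 0.29 and -0.06, also with no limma call (0), and at an unadjusted p under 0.05 2 of the 5 were higher on glucose than on lactose and 2 lower than on glycerol. Over all features 13.9% were called higher on glucose than on lactose. In 3 other lists limma called genes higher on glucose than on lactose, none of them against glycerol (0). These were the citrate synthase gene cit1, with a difference of 1.18 (SE 0.149), psa5 of the 20S proteasome with 1.63 (SE 0.131), and the vesicle traffic genes sar1 with 1.27 (SE 0.11) and sso1 with 1.12 (SE 0.126). Their limma adjusted p-values were 0.000166, 1.04e-05, 1.69e-05 and 8.49e-05 in this order. The 6 proteasome genes had a median difference of 0.93 for glucose minus lactose and 0.01 for glucose minus glycerol, and at an unadjusted p under 0.05 all 6 were higher on glucose than on lactose. Of 12 genes with a cellulase symbol, which include beta-glucosidases and polysaccharide monooxygenases, 11 were called lower on glucose than on lactose. Over all features it was 15.5%. Against glycerol 2 were called higher on glucose, the beta-glucosidase genes cel1a (2.46) and cel1b (1.29). The 2 called lower were cel7a (-1.43) and cel3b (-4.3). Over all features 8.49% were called higher and 9.07% lower on glucose than on glycerol. Only genes with a symbol could be counted, so these lists hold part of each pathway.

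The place of the genes on the assembly was not used by the rule. The RefSeq annotation of the QM6a assembly, version 2.0, gave positions for 9094 features, and all 281 genes were placed. The table used here names no sequences, so a new sequence was taken to begin wherever the start coordinate dropped, which gave 61. Sequences without such a drop between them may have been joined. Genes without a feature on the array were left out of the order, so neighbours are neighbours among the placed features. Directly next to another of the 281 genes lay 55 of them (19.6%), in 21 runs of 2, 3 runs of 3 and 1 run of 4. With at most 1 gene between them the number was 81 (28.8%). The 281 genes were 3.09% of the placed features. A gene has a neighbour on either side, so this share per gene is lower than the matching background of the 19.6% or the 28.8%. That background was not computed, neither here nor for the other sets below. The same count gave 34 of 232 genes (14.7%) for those high on glycerol only, 41 of 234 (17.5%) for those low on glucose only and 195 of 719 (27.1%) for those high on lactose only, which were 2.55%, 2.57% and 7.91% of the placed features. Neighbouring was thus no property of the glucose genes alone. The median length of a run was 5212 bases.

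Of the 15 genes with the largest rise, 8 lay in runs. Of the 25 genes with a rise of at least 16-fold it was the same 8, beside 55 of all 281. Trire2:56911 and Trire2:104081, with smaller differences of 6.45 and 6.65, were direct neighbours within 4696 bases. Trire2:70973, at 6.58, stood beside Trire2:70998, which had 9.26 and 9.35 on glucose, against 5.58 and 5.53 on lactose and 4.89 and 4.80 on glycerol. Trire2:6005 stood beside Trire2:112396, which had 6.17 and 6.01 on glucose, against 3.47 and 3.73 on lactose and 3.81 and 3.80 on glycerol. Within a run the rises were not of 1 size, as the 2.28 of Trire2:112396 and the 6.68 of Trire2:6005 show.

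The run of 4 was made of Trire2:108781, Trire2:64049, Trire2:108783 and Trire2:108784 within 10210 bases. Trire2:108781 had log2 signals of 11.88 and 11.70 on glucose, against 7.88 and 8.04 on lactose and 7.94 and 8.11 on glycerol. Trire2:64049 had 12.50 and 12.46 on glucose, against 5.31 and 5.94 on lactose and 6.60 and 6.63 on glycerol. Trire2:108783 had 11.07 and 10.84 on glucose, against 7.15 and 7.39 on lactose and 7.65 and 7.49 on glycerol. In each of these 3 genes the glucose arrays lay over 3 above the others. Trire2:108784 had 11.52 and 11.73 on glucose, against 7.95 and 8.82 on lactose and 8.96 and 8.96 on glycerol, and its lactose arrays were the least alike of the run. The gene before the run, Trire2:64144, had 11.43 and 11.64 on glucose, against 10.91 and 11.05 on lactose and 11.56 and 11.80 on glycerol, and the gene after it, Trire2:64358, had 9.86 and 9.80 on glucose, against 8.46 and 8.53 on lactose and 9.46 and 9.67 on glycerol. On glycerol, both flanking genes were thus near their glucose signals.

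In the run of Trire2:76910, Trire2:106160 and Trire2:106161, the smaller difference was between 1.90 and 3.08. The next gene, Trire2:47066, annotated as sulfate adenylyltransferase, the enzyme that activates sulfate for its assimilation, had 14.40 and 14.32 on glucose, against 11.50 and 11.13 on lactose and 13.01 and 12.73 on glycerol. It met the glucose condition and was left out by the distance between lactose and glycerol. The run of Trire2:69563, Trire2:69529 and Trire2:5789 had smaller differences of 1.81 to 5.50 and ended 2 genes before cel7a. This gene encodes the major cellobiohydrolase of the fungus. It had 6.12 and 6.45 on glucose, against 14.23 and 14.22 on lactose and 7.64 and 7.78 on glycerol. Its signal was thus highest on lactose and lowest on glucose, unlike in the genes of the run. The unselected gene Trire2:69555 lay between the run and cel7a. The run of Trire2:82146, Trire2:27219 and Trire2:112034 held the largest rise, 8.06, beside one of 1.28.

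**Figure D5:**
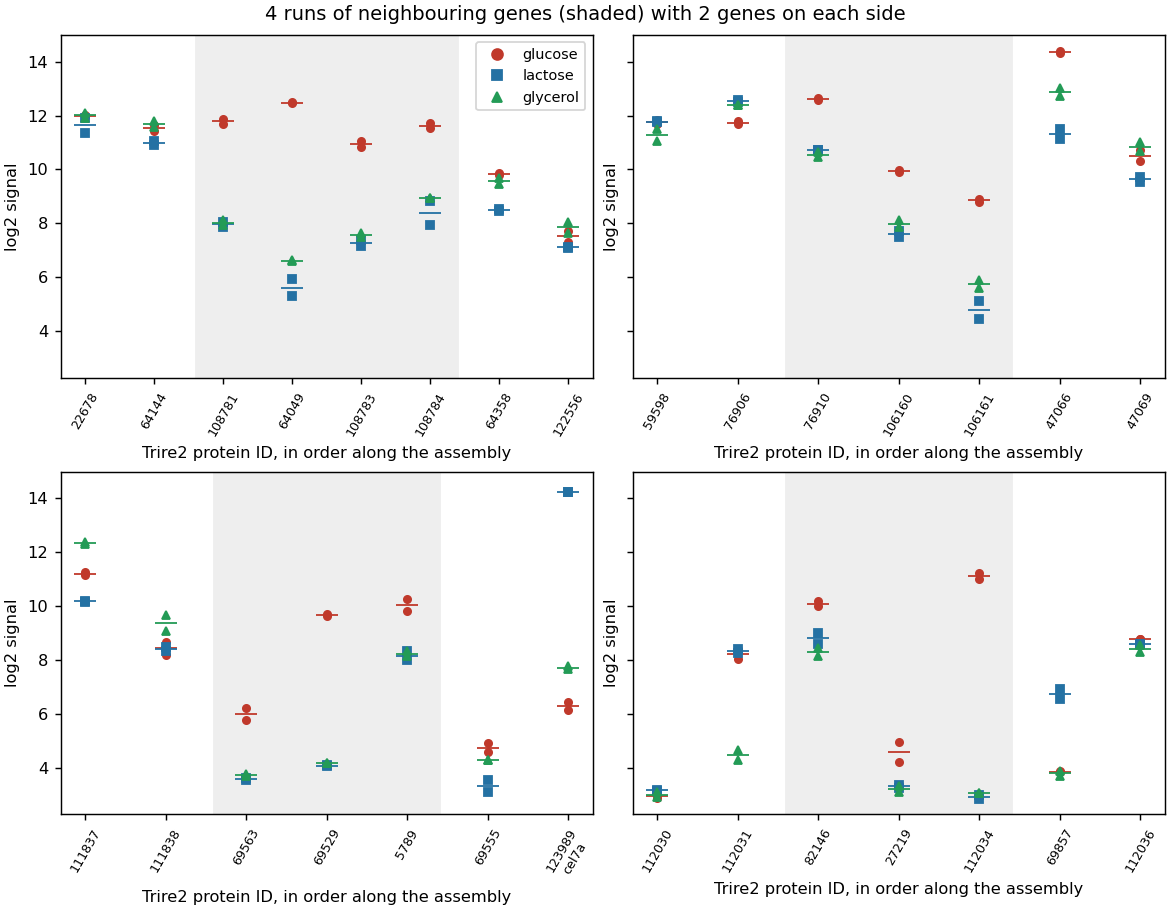
Log2 signal of each array (points) and mean (dashes) for the run of 4 and the 3 runs of 3 neighbouring genes (shaded) with 2 genes on each side, in order along the assembly, with glucose in red, lactose in blue and glycerol in green. In the shaded genes glucose lies above both others, and outside them the order of the carbon sources changes in several genes, among them cel7a with 14.23 and 14.22 on lactose.

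A larger set of neighbours was seen when genes left out by the distance between lactose and glycerol were counted. Of 483 unselected genes directly beside one of the 281, 87 (18%) were called higher on glucose than on lactose, 62 (12.8%) higher than on glycerol and 28 (5.8%) higher than on both. Over all 8845 unselected features the shares were 11.1%, 5.59% and 1.70%. The median differences of the 483 genes were 0.09 and 0.08, so most neighbours did not share the rise. Counting every gene called higher on glucose than on both, 50 stretches of 2 to 4 adjacent genes held at least 1 of the 281, with 113 genes in all, 82 of them selected and 31 not.

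Some of these 31 genes carry an annotation by the study. The study annotated only genes that differed on lactose from both other carbon sources. In annotated neighbours, here and below, a lactose signal apart from glucose and glycerol was thus fixed in advance. Trire2:73250 stood beside a predicted monooxygenase of the DszA type, Trire2:59876, with 11.86 and 11.87 on glucose, against 3.27 and 3.85 on lactose and 5.64 and 5.64 on glycerol. Trire2:110339, with 9.67 and 9.61 on glucose, against 3.21 and 4.16 on lactose and 4.41 and 4.41 on glycerol, stood beside a GMC oxidoreductase gene, Trire2:66795, with means of 11.88 on glucose, 3.42 on lactose and 5.48 on glycerol. Both neighbours had the rise of their selected gene. In both, glycerol lay over 1 above lactose, an order that the source of their annotation fixed in advance. Trire2:54761 had 9.61 and 9.58 on glucose, against 5.04 and 4.67 on lactose and 3.83 and 4.03 on glycerol, and its neighbour pap1, an aspartyl protease gene, had 13.82 and 13.79 on glucose, against 7.30 and 7.34 on lactose and 9.53 and 9.36 on glycerol. Here the order of lactose and glycerol differed between both neighbours.

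Trire2:79813, with 12.02 and 12.13 on glucose, against 9.28 and 9.39 on lactose and 8.87 and 9.28 on glycerol, stood beside a gene for a PTH11-type G protein-coupled receptor, a class of fungal membrane receptors. That gene, Trire2:122824, had 12.43 and 12.62 on glucose, against 6.64 and 6.26 on lactose and 8.45 and 8.45 on glycerol. Trire2:107850 and Trire2:107852 enclosed a gene annotated as an isoflavone reductase, Trire2:62359, which had 11.93 and 12.12 on glucose, against 4.49 and 4.44 on lactose and 10.70 and 10.88 on glycerol. The enclosed gene was higher on glucose by 7.56 over lactose and by 1.24 over glycerol on the log2 scale, whereas Trire2:107850 had 10.94 and 10.94 on glucose, against 9.67 and 9.49 on lactose and 9.80 and 9.88 on glycerol.

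Other neighbours were highest on lactose. Beside Trire2:104050, which had 6.36 and 7.01 on glucose, against 3.41 and 3.23 on lactose and 3.24 and 3.17 on glycerol, lay the gene of the cellobiohydrolase Cel6A, Trire2:72567, with 3.64 and 3.96 on glucose, against 12.07 and 11.71 on lactose and 3.94 and 3.64 on glycerol. Trire2:123227, with 11.25 and 11.25 on glucose, against 9.33 and 9.38 on lactose and 9.23 and 9.99 on glycerol, lay beside a trehalase gene, Trire2:123226, with means of 7.88 on glucose, 13.02 on lactose and 9.19 on glycerol. Trehalase splits trehalose, a storage sugar of fungi, into glucose. In both cases a gene highest on glucose was next to one highest on lactose. The trehalase gene was lowest on glucose, whereas the Cel6A gene had glucose and glycerol means only 0.01 apart. Both neighbours were annotated by the study, so their lactose signals had to lie above or below both others.

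The named chi18-17 had a neighbour of each kind. On one side lay a gene for an amino acid transporter, Trire2:110316, with 14.26 and 14.31 on glucose, against 4.40 and 5.20 on lactose and 10.23 and 10.55 on glycerol. On the other lay a gene annotated as alcohol oxidase AOX1, Trire2:80659, with 4.85 and 4.80 on glucose, against 10.89 and 11.02 on lactose and 3.25 and 3.32 on glycerol. The chitinase gene thus had its highest signal on glucose between a gene high on glucose and a gene high on lactose. Both neighbours were annotated by the study, so the same limit holds for them.

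The genes did not stand apart in length. Their median length on the assembly was 1478 bases, with a range of 204 to 6171 bases, against 1503 bases over all features.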

How the data were processed

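Mycelial RNA of T. reesei QM9414 grown on glucose, lactose or glycerol was measured on 6 NimbleGen arrays (2 each). Per the labels and methods, the deposited log2 values were made by the authors with RMA from several probes per feature; its background and normalization settings were not stated. A second deposited table gives log2 means per carbon source, at most 5e-06 away from means taken over the arrays. The deposited table also holds the authors' folds and p-values, which were not used. Columns of values per array that belong to no sample numbered 0. Depth has no meaning for arrays, and the number of arrays limits the precision.

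The deposited log2 values were fitted unchanged with limma 3.58.1 in R 4.3.3, all 3 groups in 1 fit with eBayes. The prior SD was 0.135 with 5.10 degrees of freedom, beside 3 residual ones. Calls needed over 2-fold and a Benjamini-Hochberg adjusted p under 0.05 over all features. The script was tested on simulated data. Counts used Python 3.11.15, numpy 2.4.6 and pandas 2.3.3, and figures matplotlib 3.10.9. Groups came from the sample labels. The members and lists were chosen with earlier results of these data known. Named genes were the 15 largest rises, the 10 brightest on glucose, the 5 on either side of the limit, genes with a symbol and up to 20 in runs. Unselected neighbours were named after their values were seen. Of the planned lists, those with no gene symbols could not be formed. Promoter motifs and protein similarity were planned and not run, since no sequences were used here.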

Additional observations from a re-analysis of the deposited data

How the results depend on the processing

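The count of 281 genes depended on the limits of the rule. With a glucose step of 0.75 it was 423, with a step of 1.5 it was 159, and with lactose and glycerol under 0.5 apart it was 175. Without the dimmest 25% of features it was 159, and 159 genes were called in each glucose comparison, because 122 of the 281 genes were removed with the dim features. Leaving out 1 array gave 282 to 293 genes, 261 to 268 of them among the 281, and 214 genes met the rule in all 6 such sets, a count added after seeing the data. Quantile normalization gave 271 genes and median centring 264. Called higher on glucose were 272 to 281 of the 281 genes against lactose and 267 to 280 against glycerol when 1 array was left out. Between lactose and glycerol the call count was 0, with 131 by the adjusted p alone, 14 after quantile normalization and 0 to 12 when 1 array was left out, which were 6 without lactose array 1, 12 without lactose array 2, 8 without glycerol array 1 and 9 without glycerol array 2. With the replicate number as a block, 281 genes were called in each glucose comparison and 0 between lactose and glycerol. Over all features, the deviations of arrays of the same number had r = -0.01 for glucose with lactose, 0.07 for glucose with glycerol and -0.14 for lactose with glycerol. No clear pairing by number was thus seen over all features, and pairing within smaller groups of genes was not tested. Neighbours numbered 55, with 81 when 1 gene may lie between and 41 within 2000 bases, the last added after seeing the data. Of 864 values of 48 named genes under the alternatives, 841 kept their call and 23 lost it, in 9 genes (Trire2:5088, Trire2:5612, Trire2:27219, Trire2:45138, Trire2:49193, Trire2:56525, Trire2:64874, Trire2:102437 and Trire2:124065), and none reversed (0). The rule had chosen all these genes by the same glucose differences. That they kept their glucose calls, here and in the counts above, was thus largely fixed in advance. The shares called over all features were not counted under these alternatives. Motif strand and protein identity alternatives were not run.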
